A study of Nicrophorus vespilloides with 24 samples.

Results

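Females of the burying beetle Nicrophorus vespilloides that cared for larvae together with their mate were compared with mated females that had no carcass and so could not breed. The comparison rests on 4 of the 24 RNA-seq libraries of the study, chosen by their labels alone: 2 of caring biparental females and 2 of their own controls. Every library pooled the heads of 10 beetles aged 21 days after eclosion, from a stock of Devichoys Wood, Cornwall. Both groups were housed in male and female pairs and had mated. Only the caring pairs were given a mouse carcass, both parents stayed on it, and the females were taken when they were on the carcass near larvae. Beetles of all groups, controls included, were kept alone for a day before the head was removed. The other groups drawn on here were biparental females after care, which had spent several days with larvae and had then deserted (2 libraries), females caring alone after their mate was removed with their own mated controls (2 and 2 libraries), and males caring in the biparental condition with their controls (2 and 2 libraries). The control and caring states stand for 1 time point each, so stages of care cannot be told apart, and the presence of a carcass, a brood and larvae changed together with care.

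Parental care in this genus is a breeding state with its own physiology. Parents strip and bury a small carcass, coat it with oral and anal secretions, digest part of it before feeding, and regurgitate the fluid to begging larvae. Egg laying comes before larval care, and in insects vitellogenin, the yolk protein precursor, is made mainly in the fat body and taken up from the haemolymph by growing oocytes. Fat body also lies in the head around the brain, and the pooled heads held both.

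The labels name the tissue as brain, whereas the methods describe heads with brain, fat body and connective tissue. Levels are given in CPM, counts per 1000000 of the library total after scaling by the trimmed mean of M-values (TMM). Loci described as photoreceptor or neuronal proteins were read in all 4 libraries, with the rhodopsin 1/6-like Locus_C909800 at 830 and 1611 CPM in the caring and 1871 and 526 CPM in the control libraries. Muscle loci together took 151768 and 119407 CPM in caring and 129907 and 147895 CPM in control libraries. In such pooled heads, fewer cells of a type and less RNA per cell cannot be told apart.

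The 4 libraries held 14647691 and 15821030 counts in caring females and 17729537 and 18156673 counts in controls, within the range of 14647691 to 23906173 over all 24. Of 11403 loci assembled from contigs, 9648 passed the filter on low counts and were tested with edgeR's quasi-likelihood test on all 24 libraries in 12 groups, with Benjamini-Hochberg adjustment over all loci and a threshold of 0.05. A locus is called higher or lower where its adjusted p passed that threshold. Replicates differed by more than sampling noise, with chi-square values of 50.8 per degree of freedom between the caring and 55.7 between the control libraries. The standard deviation of the log2 difference between replicates, across loci, was 0.52 in caring females and 0.56 in controls. The pools were separate sets of beetles per the methods, so the p-values measure a spread between pools. That spread was estimated over all 24 libraries and not from the 4 compared alone. The same standard deviation was 0.53 to 0.64 in the other biparental groups and 0.34 to 0.46 in the uniparental groups. The shared estimate thus draws on groups whose replicates lay closer together. With the 4 libraries alone 257 loci were called, against 765 with all 24.

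Descriptions of loci were available for the 866 loci that the study had selected on these same samples as changed in at least 1 comparison. Names and gene lists below come from the best blast hits of these loci, so the count of a list is no independent evidence of its direction. No sequence is shown, because the contigs of the assembly were not used here.

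A minority of loci differed between caring and control females, more of them higher than lower in caring. Of 9648 loci tested, 765 were called (7.93%), 483 higher in caring (5.01%) and 282 lower (2.92%). At an unadjusted p under 0.05 there were 2415 loci, 1282 higher and 1133 lower. The median log2 fold change of all loci was -0.02, and among the called loci the median size was 0.94. The caring and control libraries did not overlap at any of the 765 called loci, but they also did not overlap at 5113 of all 9648 (53.0%). Of the 825 study-selected loci tested, 272 were called (33.0%), 183 higher (22.2%) and 89 lower (10.8%), and their median log2 fold change was 0.29. The other 493 called loci have no description here.

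The called loci differed widely in the size of change. Among called loci, 89 were more than 4-fold and 159 between 2-fold and 4-fold higher in caring, and 40 were more than 4-fold and 64 between 2-fold and 4-fold lower. The other 235 higher and 178 lower loci had fitted changes of 2-fold or less. The study-selected loci made up 88 of the 89 and 39 of the 40 largest changes, but 2 of the 235 and 9 of the 178 smallest. The study had selected them as changed on these same samples, this comparison included, so this split is no independent result. A set of 21 higher loci had 3 or fewer counts over both control libraries, and 13 lower loci had 3 or fewer counts over both caring libraries. The count of calls rested on each library. It was 176 without caring replicate 2, 313 without control replicate 1, 411 without control replicate 2 and 523 without caring replicate 1.

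**Figure D1:**
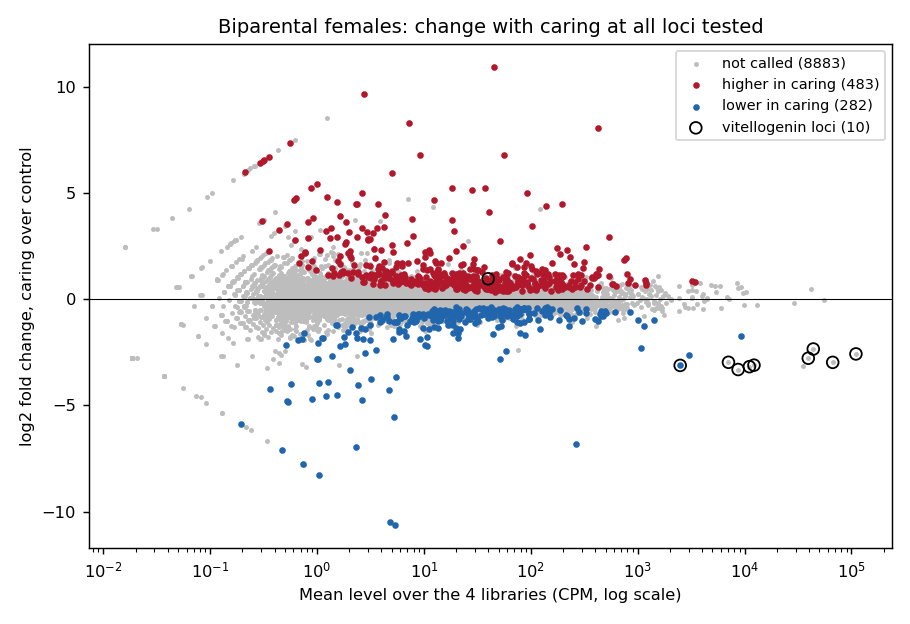
Each point is 1 of the 9648 loci tested, with the mean level over the 2 caring and 2 control libraries of biparental females (CPM, log scale) on the horizontal axis and the log2 fold change, caring over control, on the vertical axis. The 483 loci called higher are red, the 282 called lower blue and the other 8883 grey, and circles mark the 10 vitellogenin loci, 9 of which lie below 0 at the right of the plot.

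Yolk protein transcripts showed the difference that weighed most in the libraries. The 10 loci described as vitellogenin together took 35.3% and 39.4% of all counts in the control libraries and 8.01% and 9.17% in the caring libraries. After care they took 17.9% and 21.8%. Each caring library thus lay below each control and each post-caring library. In CPM, the sums were 75251 and 84558 in caring, 459620 and 586940 in control and 172523 and 232154 in post-caring libraries.

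Locus by locus, 9 of the 10 vitellogenins had a negative and 1 a positive log2 fold change, with a median of -2.97 beside -0.02 over all loci, and caring and control libraries were apart at all 10. The locus with the most counts, Locus_C911252, stood at 30270 and 33120 CPM in caring, 170168 and 206398 CPM in control and 63949 and 96165 CPM in post-caring libraries. Its log2 fold change was -2.57 ± 1.04 (SE), which did not pass the test (adjusted p = 0.136). Locus_C896214 had the most negative estimate of the list, at 1597 and 1598 CPM in caring against 13499 and 18078 CPM in control libraries (log2 fold change -3.30 ± 1.03 SE, adjusted p = 0.0595). Only Locus_C828738 passed, at 483 and 552 CPM in caring against 3805 and 5141 CPM in control libraries (-3.11 ± 0.86 SE, adjusted p = 0.0357), and its call was lost when any 1 of the 4 libraries was left out. The single positive estimate was that of the locus described as Vitellogenin-6, Locus_C852695, at 38.8 and 66.8 CPM in caring and 38.2 and 15.7 CPM in control libraries (0.97 ± 0.39 SE, adjusted p = 0.132). At an unadjusted p under 0.05, 9 of the loci were lower and 1 was higher. Without control replicate 1, the Vitellogenin-6 locus was called higher.

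How many vitellogenin loci passed varied with the libraries in the fit and with the test. With all 24 libraries 1 was called lower, with the 12 female libraries 9, with the 4 compared libraries alone 9, with the 12 biparental libraries 4, 6 under the likelihood ratio test and 8 under DESeq2. In the 12 male libraries the same loci took between 0.00523% and 0.704% of the counts. The 0.704% was that of 1 uniparental male control library. Its replicate had 0.0177%, and the other male libraries had at most 0.0548%. Reads of near-identical vitellogenin contigs may also have been split between loci by the counting, so the single loci are less certain than their sum.

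**Figure D2:**
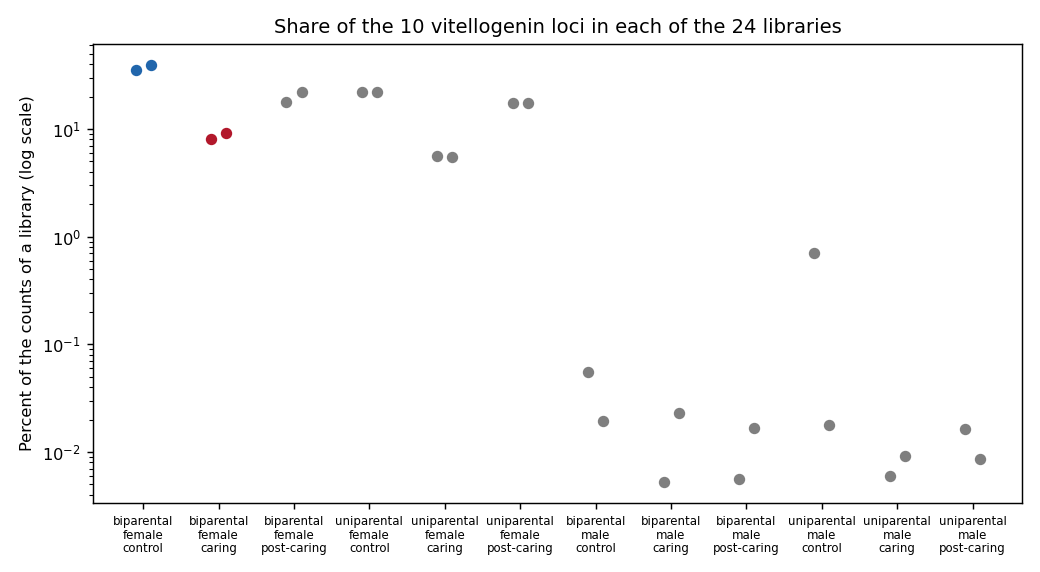
Each point is 1 of the 24 libraries, and the vertical axis gives the percent of its counts at the 10 vitellogenin loci on a log scale, by group. The caring biparental females (red) lie at 8.01% and 9.17%, their controls (blue) at 35.3% and 39.4%, and all male libraries under 1%, the highest at 0.704%.

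The share of vitellogenin moved with the scaling of the libraries. TMM factors were 1.06 and 1.08 in caring and 0.768 and 0.672 in control females, and the 10 most read loci took 26.8% and 24.5% of the counts in caring and 46.8% and 50.1% in control libraries. With library totals alone in place of TMM, the median log2 fold change of all loci rose to 0.56, and 4443 of 4524 calls were higher (98.2%, against 63.1% with TMM). Directions below are relative to the TMM scale. The normalizations by relative log expression and by upper quartile gave 490 and 511 higher and 270 and 269 lower loci.

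A pair of other loci for haemolymph proteins were lower in caring. Arylphorin is a storage protein of insect haemolymph. Its locus, Locus_3250, stood at 7.18 and 2.33 CPM in caring, 901 and 154 CPM in control and 23.2 and 8.92 CPM in post-caring libraries. The caring and control libraries did not overlap, although the controls themselves lay far apart. It fell by 6.80 on the log2 scale (SE 1.61, adjusted p = 0.0169), a call kept only when control replicate 2 was the library left out. The locus described as a 13 kDa hemolymph protein and odorant binding protein, Locus_C903126, had 6012 and 2577 CPM in caring and 20418 and 8182 CPM in control libraries. It fell by 1.74 (SE 0.49, adjusted p = 0.0399), and lost its call without caring replicate 2 or control replicate 1. Of the 8 fat body and haemolymph loci on the list, these 2 were lower (25.0%), where 33.0% of the study-selected loci were called and 10.8% were lower. None was called higher, and the median log2 fold change was -0.72. The 1 positive estimate was that of another locus described as a 13 kDa hemolymph protein, Locus_52896. It had 3.72 and 0.874 CPM in caring and 0.587 and 0.492 CPM in control libraries and did not pass (2.06 ± 0.81 SE, adjusted p = 0.128). When loci sharing a best blast hit with a listed locus were added, a step chosen after seeing the data, 12.5% of 16 loci were called. The summed level of the list was 7600 and 5248 CPM in caring and 23705 and 10971 CPM in control libraries. The part of the fat body content of the heads in the vitellogenin and haemolymph differences was not tested.

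A lysosomal acid lipase, an enzyme class that cleaves stored lipid esters, showed the same order of groups. Locus_C857706 had 766 and 909 CPM in caring, 3880 and 6436 CPM in control and 1611 and 3195 CPM in post-caring libraries. It fell by 2.62 (SE 0.75, adjusted p = 0.0414), but no fit without 1 of the 4 libraries kept the call. In the biparental male libraries this locus was at most 10.9 CPM in caring and control groups.

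The takeout family, whose members bind lipophilic ligands and in Drosophila act in feeding and in male courtship, had 3 study-selected loci. Locus_56531 had 0 counts in both caring libraries, 7.93 and 13.7 CPM in controls and 0.124 and 5.59 CPM after care. With a floor of 3 counts per caring library, it was at least 58.9-fold lower in caring (adjusted p = 0.00399), and the call held without any 1 of the 4 libraries. Locus_3293 was at 0.128 and 0.0583 CPM in caring and 0.587 and 0.984 CPM in control libraries, 8.46-fold lower with a counting interval of 2.51 to 44.5 at 95%, and did not pass (adjusted p = 0.0526). Locus_C894552, at 0.385 and 0.117 CPM against 0.22 and 0.246 CPM, overlapped between groups. With loci of a shared best hit added, 4 were tested, 2 with a positive and 2 with a negative log2 fold change. The added Locus_5224 had the most reads of them in caring, with means of 5.95 CPM in caring and 3.23 CPM in control libraries. It did not pass (log2 fold change 0.87 ± 0.45 SE, adjusted p = 0.239).

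The carbohydrate loci that passed were all higher in caring. Of the 16 loci on the list, 6 were higher and none lower, the other 10 did not pass, and the median log2 fold change was 1.39, against 5.01% of all loci called higher and a median of -0.02. The 37.5% of this list lay near the 33.0% of the study-selected loci called in either direction and above the 22.2% of them called higher. A beta-glucosidase, an enzyme that frees glucose from glycosides, was all but absent from controls. Locus_26800 had 16.2 and 12.5 CPM in caring, 0.0734 and 0 CPM in control and 0.434 and 0.92 CPM in post-caring libraries. The ratio of caring to control was 368, with a counting interval of 65.7 to 14568, and the adjusted p was 8.3e-05. Glucose dehydrogenase, which oxidizes glucose, was read at 4.23 and 6.64 CPM in caring libraries at Locus_38423 and at 0 in both controls, at least 23.3-fold higher (adjusted p = 0.000571). A sugar transporter of solute carrier family 2, Locus_C887820, stood at 281 and 439 CPM in caring and 41.4 and 103 CPM in control libraries, a log2 fold change of 2.32 ± 0.62 SE (adjusted p = 0.0307), which was lost without caring replicate 2 or control replicate 1. The beta-glucosidase and glucose dehydrogenase calls held without any 1 of the 4 libraries. The count of higher loci of the list fell to 3 without caring replicate 2 or without control replicate 1, and was 10 with the likelihood ratio test or DESeq2.

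Serine proteases, which digest protein in the gut and run cascades in the haemolymph, had a positive median. Of 24 loci tested, 7 were higher and 1 lower, 33.3% in all and so near the 33.0% of the study-selected loci, and the median log2 fold change was 2.10 beside 0.29 over those loci. Locus_65710, which belongs to this list by its best hit but is otherwise uncharacterized, had 41.9 and 138 CPM in caring, 0 and 0.082 CPM in control and 0.186 and 4.46 CPM in post-caring libraries. Its ratio of 2383 has a counting interval of 427 to 94166 (adjusted p = 0.000795). Locus_7402, described only as a serine protease, had 42.1 and 135 CPM against 13.7 and 12.4 CPM (log2 fold change 2.76 ± 0.40 SE, adjusted p = 0.000703). A chymotrypsin-1-like locus, Locus_68383, had 0.77 and 0.641 CPM in caring libraries and none in controls, at least 3.03-fold higher (adjusted p = 0.00879).

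The lower locus of that list carried most of its counts. The trypsin-like Locus_C855163 was at 856 and 488 CPM in caring and 2085 and 1173 CPM in control libraries. It fell by 1.28 (SE 0.36, adjusted p = 0.0373), and the call was lost without caring replicate 2 or control replicate 1. With it, the summed level of the list was lower in caring (1013 and 850 CPM) than in control libraries (2264 and 1341 CPM), while the median of its loci was positive. The count of higher serine proteases was 4 when any 1 of the 4 libraries was left out. Of 7 protease inhibitors, none passed in either direction, and 1 was higher at an unadjusted p under 0.05.

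Cytochrome P450 enzymes, which oxidize hormones, lipids and toxins, changed in both directions. Of 23 loci, 9 were higher and 8 lower, 73.9% of the list against 33.0% of the study-selected loci, with a median log2 fold change of -0.13. With loci of a shared best hit added, 10 of 38 were higher and 8 lower (47.4%), and the median was 0.43. Locus_50252, described only as a cytochrome P450, was at 74.8 and 145 CPM in caring, 1.1 and 0.82 CPM in control and 1.92 and 7.08 CPM in post-caring libraries (log2 fold change 6.82 ± 0.97 SE, adjusted p = 0.00064). The P450 4g15 locus, Locus_72396, had 19.4 and 16.7 CPM in caring and 0.294 and 0 CPM in control libraries. CYP4U3v1, Locus_3508, had 5.96 and 13.8 CPM against 0.147 and 0.164 CPM. These higher loci were called in each fit without 1 library.

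Among the lower P450 loci, 3 were described as antennae-rich, a name for enzymes of insect antennae. The lowest estimate was that of Locus_73770, with 0 and 0.0583 CPM in caring, 8.08 and 1.15 CPM in control and 4.77 and 4.18 CPM in post-caring libraries, 157-fold lower with a counting interval of 27.7 to 6264 (adjusted p = 0.00495). This call was lost without caring replicate 2 or control replicate 1. A P450 9Z4 locus, Locus_C911204, had 0.257 and 0.117 CPM in caring and 3.67 and 6.56 CPM in control libraries and fell by 4.74 (SE 0.65, adjusted p = 0.000571), while another locus of the same description, Locus_40149, was higher in caring by 3.22 ± 0.63 SE (adjusted p = 0.00559). Loci of the same description thus moved in opposite directions. The counts of lower P450 loci ranged from 3 to 6 and those of higher ones from 6 to 9 when 1 library was left out.

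CYP18A1, which in Drosophila inactivates the moulting hormone ecdysone, was among the higher P450 loci. Locus_40050 had 31.9 and 34.7 CPM in caring, 9.54 and 3.94 CPM in control and 5.88 and 7.5 CPM in post-caring libraries. The log2 fold change was 2.29 ± 0.31 SE (adjusted p = 0.000571) and held without any 1 library. The transcription factor dimmed, which in Drosophila sets up the secretory machinery of peptide-releasing neurons, moved the other way. Locus_27563 was at 3.78 and 4.08 CPM in caring, 15.4 and 13.3 CPM in control and 9.79 and 9.27 CPM in post-caring libraries. It fell by 1.87 (SE 0.22, adjusted p = 0.000182), again in every fit without 1 library. A juvenile hormone esterase, which breaks down juvenile hormone, stood at 55.7 and 57.2 CPM in caring and 88 and 126 CPM in control libraries (Locus_71619) and did not pass (log2 fold change -0.93 ± 0.31 SE, adjusted p = 0.0736). The insulin-related peptide 3 locus, Locus_78637, had a log2 fold change of -1.49 ± 0.58 SE and did not pass either (adjusted p = 0.126). Of the 5 hormone loci, 1 was higher and 1 lower (40.0%, against 33.0% of the study-selected loci).

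**Figure D3:**
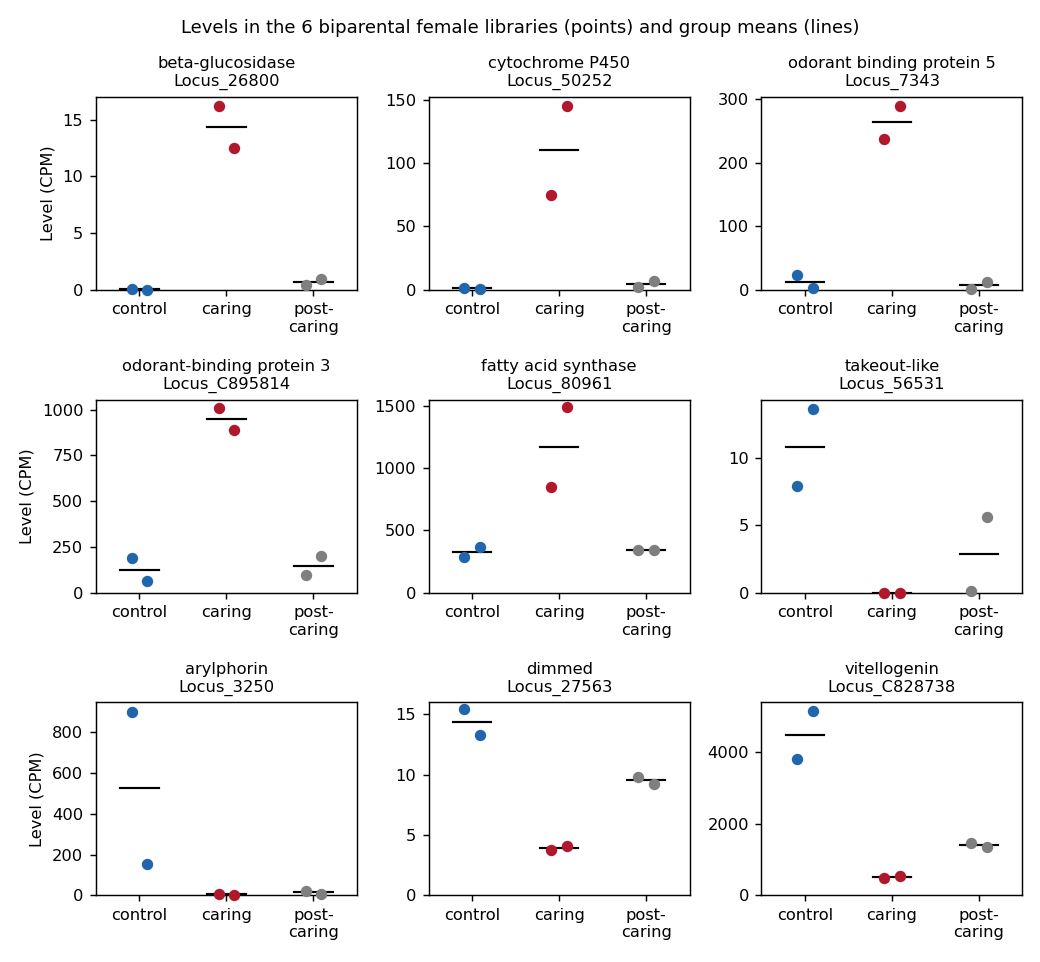
Levels of 9 loci (CPM, linear axes from 0) in the 2 control, 2 caring and 2 post-caring libraries of biparental females, with points for libraries and lines for group means. In each panel the caring points lie apart from the control points, as for beta-glucosidase (16.2 and 12.5 CPM against 0.0734 and 0 CPM) and dimmed (3.78 and 4.08 CPM against 15.4 and 13.3 CPM).

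Chemosensory loci changed in both directions. Odorant-binding proteins carry small hydrophobic molecules in the fluid around sensory neurons and in other secretions. Of 29 chemosensory loci, 9 were higher and 4 lower in caring, 44.8% in all against 33.0% of the study-selected loci, with a median log2 fold change of 0.83. The summed level of the list lay the other way, at 8177 and 4828 CPM in caring and 20949 and 8507 CPM in control libraries, most of it from Locus_C903126. The higher loci were 6 odorant-binding proteins, 1 chemosensory protein and 2 pheromone-degrading enzymes, and the lower loci were the 3 antennae-rich P450 loci and Locus_C903126, described both as a haemolymph and as an odorant binding protein. Odorant binding protein 5 at Locus_7343 had 237 and 290 CPM in caring, 22.2 and 2.71 CPM in control and 1.73 and 11.5 CPM in post-caring libraries (log2 fold change 4.39 ± 0.88 SE, adjusted p = 0.00665). Odorant-binding protein 3, Locus_C895814, had 1009 and 890 CPM against 187 and 63.3 CPM (2.92 ± 0.57 SE, adjusted p = 0.00522), and 94.7 and 198 CPM after care. The putative odorant-binding protein 1 at Locus_6761 had 308 and 278 CPM in caring, 44.8 and 65.6 CPM in control and 139 and 115 CPM in post-caring libraries (2.41 ± 0.31 SE, adjusted p = 0.000459). The first 2 of these lost their calls without control replicate 2, at adjusted p of 0.0522 and 0.0551. The count of higher chemosensory loci was 3 without control replicate 2, and that of lower ones 0 without caring replicate 2 and 1 without control replicate 1.

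Of 14 loci for fatty acid synthesis and modification, 1 was higher and 4 were lower in caring (35.7%, near the 33.0% of the study-selected loci). Fatty acid synthase, which builds fatty acids from malonyl units, was higher at Locus_80961, with 847 and 1492 CPM in caring, 288 and 368 CPM in control and 339 and 345 CPM in post-caring libraries (log2 fold change 1.83 ± 0.39 SE, adjusted p = 0.00913). That call was lost without caring replicate 2 or control replicate 1. The other fatty acid synthase locus, Locus_50934, had few reads and overlapped, at 0.0641 and 0.117 CPM in caring and 0.441 and 0 CPM in control libraries (log2 fold change -1.27 ± 1.71 SE, adjusted p = 0.681). The 4 lower loci were all described as fatty acyl-CoA synthetase or luciferase, related enzymes that activate fatty acids or similar acids with ATP. Locus_C909540, a putative fatty acyl-CoA synthetase, was at 0.385 and 0.0583 CPM in caring, 9.98 and 10.5 CPM in control and 4.21 and 4.88 CPM in post-caring libraries, and fell by 5.53 (SE 0.83, adjusted p = 0.000871). Locus_15119, described as luciferase, was at 0.321 and 0.408 CPM against 3.67 and 3.77 CPM and fell by 3.32 (SE 0.42, adjusted p = 0.000403). The firefly luciferase-like Locus_59490 did not pass (log2 fold change 2.35 ± 0.76 SE, adjusted p = 0.0674). The count of lower loci was 4 in each fit without 1 library. The median of the list, -0.74, ranged from -1.69 to 0.82 in these fits and so changed sign. The summed level was higher in caring (969 and 1609 CPM) than in control libraries (387 and 457 CPM), most of it from Locus_80961.

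Lipases and esterases, which cleave ester bonds, held 3 higher and 2 lower loci of 12 (41.7%, against 33.0% of the study-selected loci). The putative esterase Locus_78203 had 135 and 218 CPM in caring, 5.43 and 5.66 CPM in control and 3.9 and 15.2 CPM in post-caring libraries (log2 fold change 4.99 ± 0.78 SE, adjusted p = 0.00122), and held in each fit without 1 library. All 3 higher loci were described as esterases. The 2 lower loci were both lysosomal acid lipases, Locus_C857706 given above and Locus_10994, which was at 0.192 and 0.0583 CPM in caring and 2.72 and 1.23 CPM in control libraries and fell by 3.95 (SE 0.75, adjusted p = 0.00444). No lipase was called lower without caring replicate 2 or without control replicate 1.

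Immune loci moved both ways and mostly did not pass. Of 16 tested, 2 were higher and 2 lower (25.0% in all, against 33.0% of the study-selected loci), and 12 did not pass, although 6 were higher and 2 lower at an unadjusted p under 0.05. The peptidoglycan recognition protein SA, a sensor of bacterial cell wall, was higher at Locus_C859016, with 6.16 and 6.94 CPM in caring and 0.954 and 1.64 CPM in control libraries (log2 fold change 2.34 ± 0.40 SE, adjusted p = 0.00217). GNBP3, which in Drosophila senses fungal glucans, was lower at Locus_C880072, with 2.95 and 3.38 CPM against 7.56 and 9.27 CPM (fell by 1.40, SE 0.31, adjusted p = 0.0118). A thaumatin-like protein, of a family with antifungal members, was lower at Locus_75085, with 42.3 and 36.3 CPM in caring, 132 and 103 CPM in control and 319 and 268 CPM in post-caring libraries (fell by 1.58, SE 0.43, adjusted p = 0.0328). Its call was lost when any 1 of the 4 libraries was left out. Another thaumatin-like locus, Locus_8246, lay the other way on few reads, at 0.705 and 0.117 CPM in caring and 0 in both control libraries, and did not pass (adjusted p = 0.121). Another peptidoglycan recognition protein, Locus_20763, was read at 0.577 and 0.466 CPM in caring libraries and at 0 in controls, at least 2.24-fold higher, and did not pass (adjusted p = 0.0595). The melanization-related protein at Locus_C881922 overlapped between groups, at 359 and 473 CPM in caring and 841 and 216 CPM in control libraries. No immune locus was called lower without caring replicate 1, caring replicate 2 or control replicate 2.

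Of 17 cuticle loci, 5 were higher and none lower in caring. That share (29.4%) lay near those of the study-selected loci, of which 33.0% were called and 22.2% were higher. The list had a median log2 fold change of 1.09. Cuticular protein 67B at Locus_C911280 stood at 731 and 738 CPM in caring, 355 and 337 CPM in control and 430 and 491 CPM in post-caring libraries (log2 fold change 1.09 ± 0.26 SE, adjusted p = 0.0178). Replicates lay close together, yet no fit without 1 library kept its call (adjusted p from 0.0597 to 0.0948). Without control replicate 2 the list held 1 higher locus, and 2 without any other single library. The pigment gene homologue yellow-3, Locus_69970, had 0 and 0.291 CPM in caring and 0.22 and 0.41 CPM in control libraries and overlapped.

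**Figure D4:**
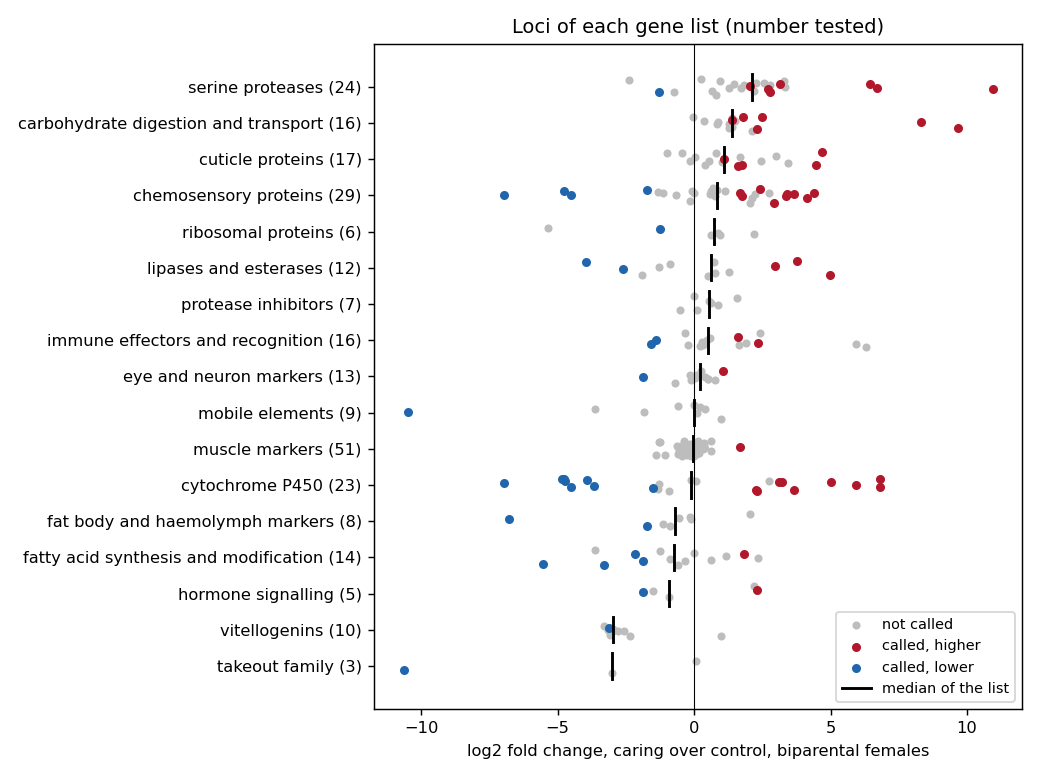
Each point is 1 tested locus of 17 gene lists, placed by its log2 fold change in biparental females, caring over control, and vertical bars mark the list medians. Red and blue points were called higher and lower, and the plot shows both colours among the cytochrome P450 loci (9 and 8) and red points only among the carbohydrate (6) and cuticle (5) loci.

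Marker lists for muscle and for eye and neurons held a smaller share of called loci than the study-selected loci did. Of 51 muscle loci, 1 was higher and none lower (1.96%, against 7.93% of all loci and 33.0% of the study-selected loci). The median log2 fold change of the list was -0.04. The higher locus was a troponin C, the calcium sensor of the sarcomere, at Locus_C857224, with 270 and 211 CPM in caring and 85.5 and 63.2 CPM in control libraries (1.70 ± 0.30 SE, adjusted p = 0.00277). Actin-87E at Locus_C912026 had 62913 and 46139 CPM in caring and 52758 and 59171 CPM in control libraries. Of 13 eye and neuron loci, 1 was higher and 1 lower (dimmed, above), 15.4% against the same 7.93% and 33.0%, and their median was 0.23. The higher one was CRALBP, a carrier of retinaldehyde in the vertebrate eye, at Locus_23246, with 78.6 and 127 CPM against 57.6 and 41 CPM (1.06 ± 0.29 SE, adjusted p = 0.0374), called in 1 of the 4 fits without a library. The summed level of the eye and neuron list was 1950 and 3886 CPM in caring and 3840 and 1180 CPM in control libraries, so replicates of each group differed more than the groups did.

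The 6 ribosomal protein loci had a median log2 fold change of 0.74, and 3 were higher and 1 lower at an unadjusted p under 0.05. After adjustment, L18A was lower (16.7%) and none was higher, where 2.92% of all loci and 10.8% of the study-selected loci were lower. Locus_18305 had 144 and 126 CPM in caring, 375 and 272 CPM in control and 329 and 393 CPM in post-caring libraries (fell by 1.26, SE 0.20, adjusted p = 0.00141). Of 9 mobile element loci, 1 was lower (11.1%, near the 10.8% of the study-selected loci), described as a Pol polyprotein of a transposon. Locus_C869376 had 0 counts in both caring libraries, 4.11 and 15.3 CPM in controls and 28.1 and 16.2 CPM after care, at least 52.7-fold lower in caring than in control libraries (adjusted p = 0.0006).

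Outside the lists, several loci of many reads were higher in caring. Gelsolin, which severs actin filaments, had 802 and 1685 CPM in caring, 308 and 340 CPM in control and 640 and 724 CPM in post-caring libraries at Locus_4083 (log2 fold change 1.94 ± 0.36 SE, adjusted p = 0.00381), a call lost without caring replicate 2. A glutathione S-transferase, a detoxifying enzyme, had 913 and 1294 CPM against 597 and 379 CPM at Locus_C873834 (1.18 ± 0.25 SE, adjusted p = 0.0103), lost without caring replicate 2 or control replicate 2. The mitochondrial ATP synthase F0 subunit 6, Locus_C894694, was lower, with 476 and 255 CPM in caring, 857 and 2690 CPM in control and 1347 and 2499 CPM in post-caring libraries (fell by 2.28, SE 0.66, adjusted p = 0.044), a call kept only without control replicate 1.

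An organic cation transporter, of a family that moves charged small molecules across membranes, had the smallest p of all loci. Locus_15845 stood at 17.6 and 19.1 CPM in caring, 96.1 and 102 CPM in control and 59.5 and 76.2 CPM in post-caring libraries, and it fell by 2.43 (SE 0.18, adjusted p = 1.9e-06). Its replicates lay close together in all 3 groups.

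Among loci without a description, Locus_33931 had the second highest change after Locus_65710, at 588 and 1092 CPM in caring, 3.38 and 2.87 CPM in control and 3.22 and 30.6 CPM in post-caring libraries (log2 fold change 8.06 ± 1.18 SE, adjusted p = 0.000764). Locus_28495 had 0 counts in both caring libraries and 1.69 and 2.46 CPM in controls, at least 11.3-fold lower (adjusted p = 0.0199). Locus_C899266 also had none in caring and 1.69 and 1.23 CPM in controls, at least 7.95-fold lower (adjusted p = 0.034). Both of these falls were lost when any 1 of the 4 libraries was left out.

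The same caring libraries were set against the females that had ended care. Of 9648 loci, 284 were called (2.94%), 141 higher and 143 lower in caring than after care. This comparison shares the caring libraries with the one above, so values are given side by side. Beta-glucosidase was 4.42 log2 units higher in caring than after care (adjusted p = 0.000374), and fatty acid synthase 1.77 (adjusted p = 0.0183). Dimmed was lower than after care by 1.28 (log2 difference -1.28, adjusted p = 0.0046), and the thaumatin-like Locus_75085 by more than against controls (log2 difference -2.90, adjusted p = 0.00228). For the vitellogenin Locus_C828738 the log2 difference to the post-caring females was -1.44 and did not pass (adjusted p = 0.439). No vitellogenin was called in this comparison. The count of calls ranged from 74 to 332 when 1 library was left out. It was 74 without caring replicate 2, 118 without post-caring replicate 2 and 149 without caring replicate 1.

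Females that cared alone were compared to find where the change with caring differed between the 2 conditions. The conditions also differed in their controls. Vitellogenin loci took 35.3% and 39.4% of the counts in biparental and 21.9% and 22.1% in uniparental control females. A difference of changes thus holds the controls as well as the caring females, and the part of each was not tested. The difference of the caring changes, biparental minus uniparental, was called at 155 of 9648 loci (1.61%), positive at 152 (1.58%) and negative at 3. The 155 loci had, by choice, unlike changes, with median log2 changes of 0.42 in biparental and -0.91 in uniparental females. Troponin C at Locus_C857224, which was higher in biparental caring, had 126 and 105 CPM in caring and 86.4 and 177 CPM in control females of the uniparental groups, and its changes differed by 1.88 (adjusted p = 0.0354). Catalase, which breaks down hydrogen peroxide, did not pass in biparental females at Locus_48159 (3.08 and 3.79 CPM in caring, 3.45 and 2.38 CPM in controls). It was 3.42 and 3.42 CPM in uniparental caring and 19.7 and 15.8 CPM in uniparental control libraries, a difference of changes of 2.60 (adjusted p = 0.0325). At this locus the caring libraries of the 2 conditions were close in level, and the controls lay apart. A sulfotransferase, Locus_38335, had the most negative difference among described loci whose difference was called (-2.95, adjusted p = 0.0313), at 1.35 and 1.46 CPM in biparental caring and 13.3 and 13.8 CPM in uniparental caring females.

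The muscle list, whose loci the study had selected partly on the uniparental libraries, was also counted in that difference. Of the 51 muscle loci, 11 had a called difference, all positive (21.6%), against 1.58% of all loci and 8.61% of the study-selected loci. In uniparental females 50 of the 51 were called lower in caring, with a median log2 fold change of -1.37, where 7.55% of all loci and 32.6% of the study-selected loci were called lower. Summed muscle levels were 52168 and 57886 CPM in uniparental caring and 110846 and 177326 CPM in uniparental control females, against 151768 and 119407 CPM and 129907 and 147895 CPM in the biparental groups. The uniparental controls themselves differed by a wide margin, while neither biparental group overlapped the uniparental caring libraries. The part of the muscle content of the heads in the called differences was not tested. The count of 155 fell to 0 without uniparental caring replicate 1, uniparental control replicate 2 or biparental control replicate 1, to 1 without biparental caring replicate 2, to 10 without uniparental caring replicate 2 and to 29 without biparental caring replicate 1, and it was 256 without uniparental control replicate 1 and 235 without biparental control replicate 2.

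**Figure D5:**
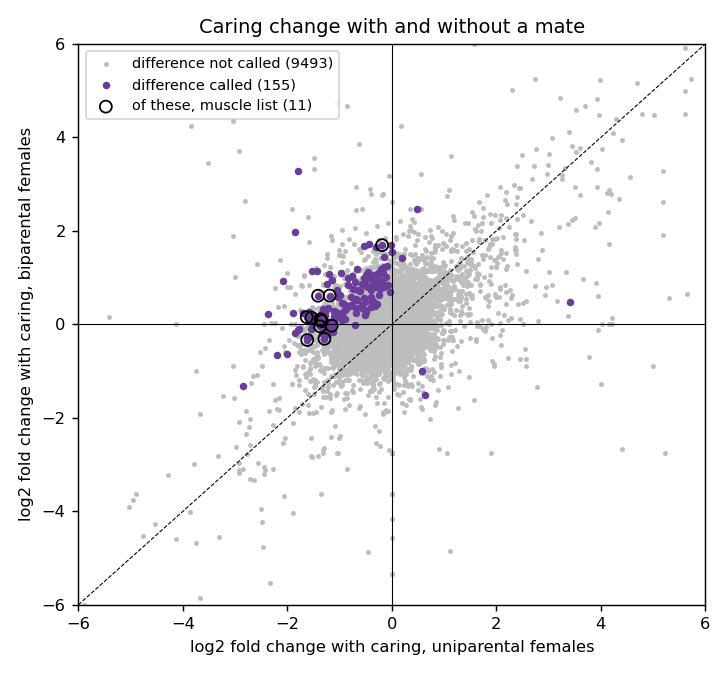
Each point is 1 locus, with its log2 fold change with caring in uniparental females on the horizontal and in biparental females on the vertical axis (40 of 9648 loci lie outside the axes, which end at 6 in both directions). The 155 loci whose changes differed are purple and lie mostly above the diagonal line of equal change, and circles mark the 11 of them on the muscle list.

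Other loci named above are given beside their values in females caring alone, and their difference did not pass. Beta-glucosidase stood at 6.2 and 7.13 CPM in uniparental caring libraries and 0 in both of their controls, and dimmed at 3.21 and 3.84 CPM against 11.6 and 12.8 CPM. For dimmed the difference of changes was -0.08 (adjusted p = 0.938). No vitellogenin was called in this difference, and the difference at Locus_C828738 was -0.19 (adjusted p = 0.97).

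Against males caring in the biparental condition, the change of the females differed at 3 of 9648 loci (0.0311%), with 672 at an unadjusted p under 0.05. In these males themselves, caring and control libraries differed at 2 loci, 1 higher and 1 lower, against 765 in the females. So few called differences do not show that the changes of the sexes were alike. The locus described as mutated in colorectal cancers, Locus_980, had 186 and 213 CPM in caring and 86.9 and 89.7 CPM in control females, and 104 and 127 CPM in caring and 117 and 107 CPM in control males (difference of changes 1.13, adjusted p = 0.0285). The luciferase Locus_15119, given above for females, was at 3.77 and 2 CPM in caring and 2.95 and 2.37 CPM in control males (difference -3.43, adjusted p = 0.0308). Locus_C906608, described as CG7675, had 0.0641 and 0.117 CPM in caring and 1.84 and 2.79 CPM in control females, against 1.28 and 1.18 CPM and 0.699 and 0.791 CPM in males (difference -5.27, adjusted p = 0.0285). DESeq2 gave 36 and the likelihood ratio test 40 such loci, and without 1 library the count ranged from 0 to 8. It was 0 without biparental female caring replicate 2, without female control replicate 2, and without male caring replicate 1 or either male control, and 8 without male caring replicate 2.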

How the data were processed

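The study measured polyA RNA of pooled heads in 24 libraries. Reads were trimmed with Trimmomatic 0.30, contigs were assembled de novo, those with an arthropod blast hit were kept, and Bowtie2 and RSEM gave the deposited expected counts per locus. Overlapping contigs were counted together as a locus. Estimated counts of near-identical contigs may be split.

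Here the expected counts the authors deposited were rounded and tested with the quasi-likelihood test of edgeR 4.0.16 in R 4.3.3, after TMM scaling and filterByExpr with a minimum count of 10, which left 9648 of 11403 loci. The fit held 1 mean for each of 12 groups over all 24 libraries, with 12 residual degrees of freedom and a prior count of 0.125. SE is the absolute log2 fold change divided by the square root of F. Benjamini-Hochberg adjustment was made over all loci of a comparison. Counting intervals are exact at 95% and, with the floor of 3 counts per library, cover counting error only. The study itself used a likelihood ratio test, tried here as an alternative along with DESeq2 1.42.0, other normalizations, filters and sets of libraries. The scripts were tested on simulated data.

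Loci named are the 10 highest and 10 lowest described calls whose libraries did not overlap, the 5 largest rises and falls in mean CPM, the extremes and the most read locus of each list, the calls with the largest differences to the other groups, up to 2 undescribed loci in each direction, and the vitellogenin and takeout loci, of which those that matter are given. Locus_5224, Locus_6761, Locus_7402, Locus_15845, Locus_18305, Locus_40149, Locus_78637, Locus_C859016 and Locus_C880072 were named after their values were seen. The members and lists were chosen with earlier results of these data known. Lists use words in the blast descriptions of the 866 study-selected loci, 825 of them tested. The table of those loci also holds fold changes and p-values of the authors, which were not used. The male control libraries carry replicate numbers that differ between title and file, and this touches no group.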

Additional observations from a re-analysis of the deposited data

Results flagged for a closer look

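The change with caring differed between females caring with and without a mate at 155 loci by the test of the difference itself, an interaction contrast of edgeR's quasi-likelihood fit with Benjamini-Hochberg adjustment, and between females and males of the biparental condition at 3. The count of 155 was 0 with the 8 compared libraries alone and 1 with the 12 female libraries.

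The log2 differences to uniparental females among named loci were 5.08 for Locus_16876 (LOC495692 protein), 3.84 for Locus_C805825 (LIM domain protein), 2.66 for Locus_53212 (GA21710), 2.60 for Locus_48159 (catalase), 2.57 for Locus_C872082 (CG32019) and 1.88 for Locus_C857224 (troponin C 25D), and -2.95 for Locus_38335 (sulfotransferase) and -2.15 for Locus_20403 (AGAP010217). Locus_16876 was at 0.385 and 1.22 CPM in biparental caring and 0.0734 and 0.082 CPM in biparental control females, which rests on few counts. Locus_53212 had 4.36 and 7.23 CPM in biparental caring and 2.64 and 2.62 CPM in biparental control females. In uniparental females it had 9.58 and 9.13 CPM in caring and 25 and 28.8 CPM in control libraries. Uniparental controls lay above biparental controls at each locus listed with a positive difference and overlapped them at Locus_38335 and Locus_20403. The part of the controls in these differences was not tested. The log2 differences to biparental males were 1.13 for Locus_980, -3.43 for Locus_15119 and -5.27 for Locus_C906608.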

How the results depend on the processing

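The 765 calls (483 higher, 282 lower) were 1021 with DESeq2 (623 and 398), 1046 with the likelihood ratio test (628 and 418), 760 and 780 with the relative log expression and upper quartile normalizations, 766 without rounding, 715 without a filter and 752 with a minimum count of 50. They were 257 (175 higher, 82 lower) with only the 4 libraries compared, 241 (152 and 89) with the 12 biparental libraries and 548 (402 and 146) with the 12 female libraries. With library totals alone, chosen after seeing the data, they were 4524 (4443 and 81). Without 1 library they ranged from 176 to 523 (113 to 375 higher, 63 to 150 lower), and the share of higher calls from 52.1% to 71.7%. A lone library left in a group was assumed to vary like the other groups.

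The 284 calls against post-caring females became 478 with the likelihood ratio test, 460 with DESeq2, 8 with only the libraries compared and 67 with the 12 biparental libraries, and ranged from 74 to 332 without 1 library. The 155 differences to uniparental females became 386, 397, 0 with only the libraries compared and 1 with the 12 female libraries, and ranged from 0 to 256. The 3 differences to males became 40, 36, 0 with only the libraries compared, 0 with the 12 biparental libraries and 741 with library totals, and ranged from 0 to 8.

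Replicate numbers are shared between groups, but the labels tie them to no litter or day, and the replicate differences of caring and control females correlated across loci at r = 0.10 (from -0.34 to 0.44 over all pairs of groups). With the replicate block the calls were 916, and the differences to uniparental females 306.

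Of 49 named loci called, 18 were called in all 4 fits without 1 library, 11 in none, 33 of 44 with a value in the 4 libraries alone and 36 of 48 in the 12 female libraries. Estimates at 11 named loci, none of them called, changed sign or became 0 in 22 cases. The estimate of 0 was that of Locus_C873388 without control replicate 1. Their log2 ranges without 1 library were -1.43 to 5.90 (Locus_13441), -0.93 to 1.96 (Locus_2816), -0.26 to 2.31 (Locus_4129), -0.47 to 0.72 (Locus_C815084), -0.34 to 0.34 (Locus_C832510), -6.28 to 0 (Locus_C873388), -0.997 to 0.93 (Locus_C881922), -0.97 to 0.71 (Locus_C894552), -0.59 to 1.2 (Locus_C909800), -0.30 to 0.17 (Locus_C912026) and -0.15 to 0.48 (Locus_C912046). With library totals the estimates were 0.56 for Locus_C832510, 0.54 for Locus_C912026, 0.18 for Locus_C881922 and 0.0283 for Locus_13441. They were -0.0042 for Locus_C815084 in the 12 biparental and 0.0020 for Locus_C832510 in the 12 female libraries. Adding 263 loci that share a best blast hit, chosen after seeing the data, moved the higher counts of the P450 and carbohydrate lists from 9 to 10 and from 6 to 7. The share of P450 loci called fell from 73.9% to 47.4%. Shares also fell for chemosensory loci (44.8% to 34.2%), lipases and esterases (41.7% to 33.3%), hormone loci (40.0% to 33.3%) and serine proteases (33.3% to 22.9%). The carbohydrate share rose from 37.5% to 38.9%. The cause of these changes was not tested. Depth limits the loci with 3 or fewer counts in a group, whose folds are bounds or wide intervals, and 2 libraries a group limit all tests.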
